A study of Caenorhabditis elegans with 43 samples.

Results

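The 304 genomic bins described here are those of 1 kb at which the anti-Flag immunoprecipitate (IP) of worms without any Flag tag held more DNA than the input chromatin of the same worms. They were chosen by the log2 of IP CPM over input CPM (CPM, counts scaled by the library total), which had to be 0.5 or more in both N2 replicates, with the bin outside the 2 stretches of chromosome IV that hold the piRNA clusters (listed bins from 3502001 to 8000000 and from 12502001 to 17200000 were left out). Outside these stretches 29038 bins were listed in both N2 files, so that 1.05% of them were chosen, and 70403 bins were listed in at least 1 of the 6 files of this ChIP. A bin was listed by the authors only where its IP CPM exceeded 1 constant of its file, so that all values below come from bins with a raised IP.

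SNPC-1.3 ChIP-seq was made from whole worms at the L4 stage (48 h), 2 replicates per strain, each as an IP and its input. The first strain was snpc-1.3::3xflag, whose allele xk32 on chromosome V adds the tag to snpc-1.3a. The second, called SNPC-4-depleted here, carried the same tag together with snpc-4::aid, a degron fusion, and Psun-1::TIR1, and was kept for 4 h in 250 µM auxin, where the degradation factor TIR1 was made from the sun-1 promoter, which is active in the germline, so that other tissues were not targeted. The genotype label of these libraries gives the alleles xk23 of snpc-4 on chromosome I and ed3 of unc-11 on III with ieSi38 on IV, but no tagged snpc-1.3, which title and description name. The third strain was N2, the wild type without a tag. The labels number the replicates but do not say that they came from separate cultures, so that p-values measure the spread between these samples only. TRA-1 ChIP-seq of gravid adults (72 h), with the same tag, gave peak lists for 3xflag::tra-1 (allele xk37 on chromosome III), for the same allele with 1, 2 or 3 TRA-1 binding sites of snpc-1.3 mutated (xk28, xk29 and xk30, called TBSx1, TBSx2 and TBSx3) and for N2. The description of the TBSx3 libraries names 2 mutated sites, against their title and genotype.

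SNPC-1.3 and SNPC-4 are relatives of subunits of the snRNA activating protein complex, which binds the promoters of small nuclear RNA (snRNA) genes in animals and, in C. elegans, also acts at piRNA genes. In an IP from worms without the tag the antibody has no intended target, and DNA carried through the procedure is the background against which a tagged factor is read. Such a control is commonly used to recognise regions that are recovered from any chromatin.

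Stretches of 5 bins are shown because they stand for the kinds of sequence and the gene type met below, in WBcel235 coordinates and 5′ to 3′. The first is coding strand of let-2, a type IV collagen gene, with the highest ratio among the bins chosen (chrX:16384306-16384605, minus strand), in which capitals mark the glycine codons. The following 3 are repeats, from an intron of nhx-6 (chrII:1671491-1671790, plus strand), from a place on chromosome IV without an annotated gene (chrIV:10943482-10943781, plus strand) and from another on chromosome V (chrV:7989588-7989887, plus strand). In these, capitals mark a base identical to the one 18, 90 or 29 positions before it. The last holds sup-6, an annotated snRNA gene, in capitals, with flanking bases (chrII:12944701-12945000, minus strand).
let-2: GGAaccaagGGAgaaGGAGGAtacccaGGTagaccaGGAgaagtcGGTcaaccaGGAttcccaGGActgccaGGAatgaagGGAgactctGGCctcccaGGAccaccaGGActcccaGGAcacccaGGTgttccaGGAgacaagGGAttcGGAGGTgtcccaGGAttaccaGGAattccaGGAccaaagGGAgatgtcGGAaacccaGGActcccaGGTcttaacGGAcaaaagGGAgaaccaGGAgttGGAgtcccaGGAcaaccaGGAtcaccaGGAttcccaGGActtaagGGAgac
nhx-6: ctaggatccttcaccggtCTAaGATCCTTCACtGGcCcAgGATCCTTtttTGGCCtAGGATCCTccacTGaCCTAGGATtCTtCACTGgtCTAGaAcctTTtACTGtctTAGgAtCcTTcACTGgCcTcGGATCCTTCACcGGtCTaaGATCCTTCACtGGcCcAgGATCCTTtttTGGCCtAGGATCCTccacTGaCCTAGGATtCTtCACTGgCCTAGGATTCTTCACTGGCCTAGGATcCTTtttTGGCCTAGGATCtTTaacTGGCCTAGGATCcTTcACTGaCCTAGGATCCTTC
IV repeat: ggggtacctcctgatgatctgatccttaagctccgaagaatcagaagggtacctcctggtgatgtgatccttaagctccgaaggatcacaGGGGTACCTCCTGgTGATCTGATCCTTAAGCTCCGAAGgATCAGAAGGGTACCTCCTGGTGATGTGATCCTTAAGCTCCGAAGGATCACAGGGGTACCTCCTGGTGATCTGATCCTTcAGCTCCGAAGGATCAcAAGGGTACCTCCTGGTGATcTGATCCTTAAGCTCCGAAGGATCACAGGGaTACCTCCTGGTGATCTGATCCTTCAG
V repeat: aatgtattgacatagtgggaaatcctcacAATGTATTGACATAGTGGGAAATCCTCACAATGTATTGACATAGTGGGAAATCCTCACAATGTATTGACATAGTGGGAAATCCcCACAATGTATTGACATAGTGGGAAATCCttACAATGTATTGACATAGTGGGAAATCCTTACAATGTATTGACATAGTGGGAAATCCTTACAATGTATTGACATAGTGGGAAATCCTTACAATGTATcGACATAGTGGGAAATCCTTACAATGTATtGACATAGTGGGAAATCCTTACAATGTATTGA
sup-6: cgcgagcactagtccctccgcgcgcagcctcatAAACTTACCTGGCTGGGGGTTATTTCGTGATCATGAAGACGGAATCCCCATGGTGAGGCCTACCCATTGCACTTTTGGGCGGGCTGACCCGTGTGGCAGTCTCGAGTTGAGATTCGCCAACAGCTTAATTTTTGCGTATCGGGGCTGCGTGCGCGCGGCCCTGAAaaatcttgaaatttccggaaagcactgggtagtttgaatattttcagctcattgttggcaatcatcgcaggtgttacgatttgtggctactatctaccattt

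Of the 100 codons shown of let-2, 36 encode glycine, and 32 of these were followed by another glycine codon 3 codons on, the Gly-X-Y order of a collagen triple helix, which gives DNA a period of 9 bases. In the nhx-6 stretch 77.3% of 282 bases equalled the base 18 before, in the chromosome IV stretch 97.1% of 210 the base 90 before, and in the chromosome V stretch 98.2% of 271 the base 29 before. The let-2 stretch was chosen within its bin for most glycine codons, and each repeat stretch for most identical bases. Over the whole bin the identity at these shifts was 60.7% for nhx-6, 58.7% on chromosome IV and 96.2% on chromosome V. The sup-6 gene covers 165 bases at chrII:12944803-12944967.

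Totals of the 6 IP libraries were 14980457 to 24896703 counts, and those of the 6 inputs 38330920 to 48104586. Over all listed bins the median count per library was 171 to 283 in the IP and 409 to 508 in the input. SNPC-4-depleted replicate 2 stood apart in its totals, with the smallest IP and the largest input, and its log2 of input total over IP total was 1.68, against 0.85 to 1.2 in the other 5 files.

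The bins at the threshold show how gradual the choice was. Just inside it lay the bin V_6885001 in unc-70, which encodes beta-spectrin (N2 ratios 0.50 and 0.53; bins are named by chromosome and first base). IV_12214001 in phy-2, a subunit of the prolyl hydroxylase that modifies collagen, had 0.50 and 0.55 in N2, and I_13699001 in Y6B3B.1 had 0.58 and 0.50. Just outside lay V_19999001 in unc-51, an autophagy kinase gene, at 0.50 (below the threshold before rounding) and 0.55 in N2. II_4870001 in the cuticle collagen gene col-20 (0.56 and 0.50, rounded up) and III_1924001 in pqn-41 (0.71 and 0.50, rounded up) followed. In the other strains the bins on both sides of the threshold had like values. The unc-70 bin had 0.42 and 0.32 in snpc-1.3::3xflag, and the unc-51 bin 0.30 and 0.40.

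Where they were listed, the bins chosen in N2 were above the input in the other strains too. All 304 were listed in at least 1 of the 4 other files, and 257 in all 4, 25 in 3, 16 in 2 and 6 in 1. In snpc-1.3::3xflag 266 and 288 of them were listed and their median log2 ratio was 0.47 and 0.54. In SNPC-4-depleted worms 285 and 302 were listed with medians of 0.49 and 0.70, and in N2, where they were selected, the medians were 0.63 and 0.63. The same medians over all 29038 bins were 0.09 and 0.11 in snpc-1.3::3xflag, 0.11 and 0.17 in SNPC-4-depleted worms and 0.12 and 0.12 in N2. Each listed value of a chosen bin was above 0 in every file, the lowest being 0.01 in SNPC-4-depleted replicate 1. Listing itself sets much of this. A bin whose input lay below the constant of its file (10.45 to 10.54 CPM) could only be listed with a ratio above 0. The members' median input was 9.07 to 9.48 CPM in the 4 other files.

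**Figure D1:**
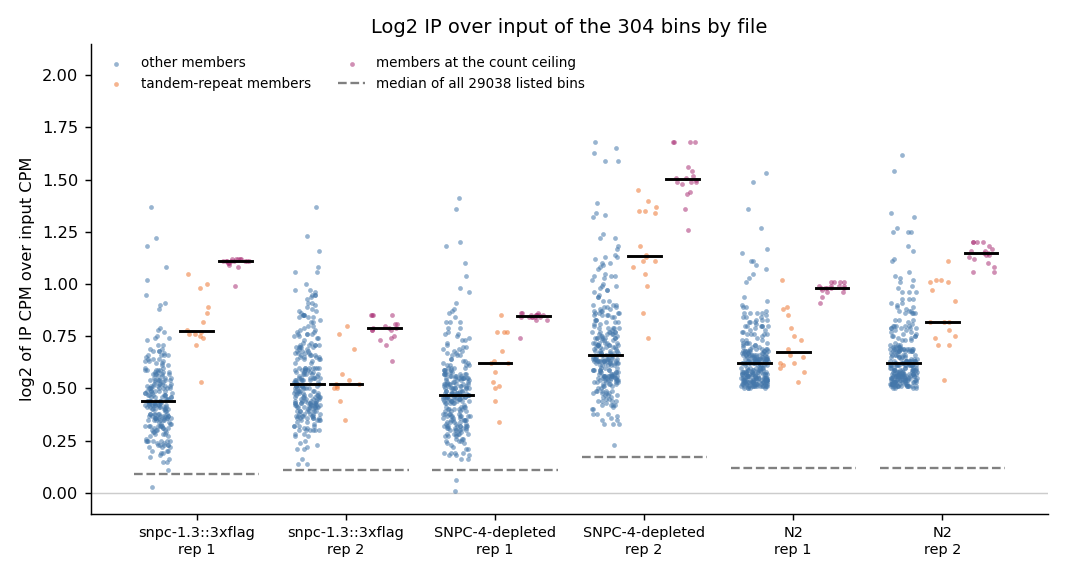
Log2 of IP CPM over input CPM of the 304 bins in each of the 6 files, with 1 point per listed bin, black lines for the median of each class and dashed grey lines for the median of all 29038 bins. The points of every file lie above 0, and the bins at the count ceiling (purple) differ between files in a narrow band, at a median of 0.79 in snpc-1.3::3xflag replicate 2 and 1.50 in SNPC-4-depleted replicate 2.

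Of the 261 bins listed in both snpc-1.3::3xflag files, 93 (35.6%) also had a ratio of 0.5 or more in both, against 1.11% of all bins listed there. In SNPC-4-depleted worms 129 of 284 (45.4%) did, against 1.08% of all bins. Both counts include all 18 bins at the count ceiling, described next, whose ratios follow the library totals. Across the 243 to 268 bins that 2 of the 4 files of the tagged strains shared (count-ceiling bins left out), Pearson's r of the log2 ratios was 0.59 to 0.73, as a description over bins that share libraries and depth. The pair of SNPC-4-depleted files had 0.72 and the pair of snpc-1.3::3xflag files 0.61.

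Members lay on all chromosomes. Chromosome X had 46 of 3679 listed bins (1.25%), chromosome I 67 of 5861 (1.14%), II 58 of 5333 (1.09%), IV 26 of 2768 outside the piRNA stretches (0.939%), III 50 of 6096 (0.82%) and V 43 of 5287 (0.813%). The mitochondrial genome, present in many copies per cell, had 14 of its 14 bins. Adjacent members formed 202 single bins, 22 pairs, 10 runs of 3, 1 run of 4, 2 runs of 5 and the mitochondrial run of 14, the longest.

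The 14 mitochondrial bins, with 4 bins at the end of chromosome I (15064001 to 15068000) that hold the ribosomal RNA genes rrn-2.1 and rrn-3.1, differed from all others in their counts. Their highest input count was 2398, which is the largest count a bin of 1000 bases can have when duplicate reads are removed and a read extended to 200 bases is kept once per start and strand. Not all of them reached it, the lowest input counts being 956 at mitochondrial and 1233 at ribosomal bins. They are called bins at the count ceiling here, a class set by their place and high input counts. At the ribosomal bins IP counts were 99.9 to 101% of input counts in every file, and at the mitochondrial bins 74.5 to 100%. The ribosomal bins had median log2 ratios of 1.12 and 0.85 in snpc-1.3::3xflag, 0.86 and 1.68 in SNPC-4-depleted worms and 1.01 and 1.2 in N2, each within 0.01 of log2 of input total over IP total. The mitochondrial bins, which encode respiratory chain subunits such as COX3 and ND1 and their tRNAs and rRNAs, had medians of 1.11 and 0.78 in snpc-1.3::3xflag, 0.84 and 1.49 in SNPC-4-depleted worms and 0.98 and 1.14 in N2. Single mitochondrial bins lay up to 0.42 from log2 of input total over IP total in SNPC-4-depleted replicate 2 and up to 0.22 in the other files. Input counts of the other 286 bins were 151 to 835. This class was set apart after its counts were seen, and the description below is of the 286 others unless stated.

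**Figure D2:**
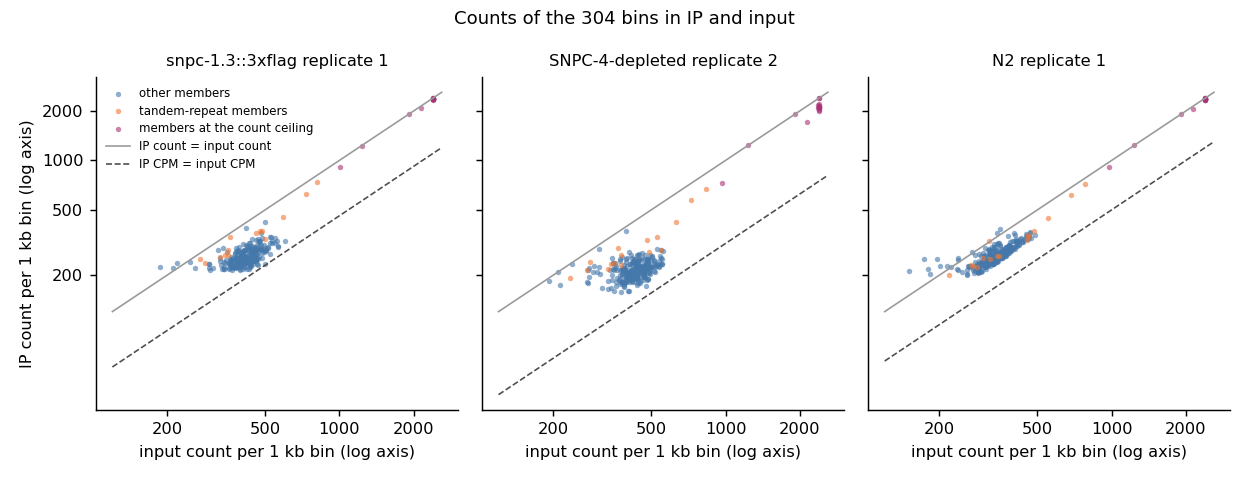
IP count against input count of each chosen bin (log axes) in 1 file of each strain, with a solid line where both counts are equal and a dashed line where both CPM values are equal. The 18 bins at the count ceiling (purple) lie on or near the solid line at counts of 724 to 2398, and the others, all above the dashed line, at input counts of 151 to 835.

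The 286 bins had more GC and more coding sequence than bins in general. Their median GC content was 47.8% (range 27.2 to 63.1%), against 38.3% over all listed bins, and their median coding share was 56.6%, against 33.6%. Protein-coding genes overlapped 241 of them (84.3%), the same share as of all listed bins (84.3%). A coding gene started in 37 (12.9%), against 21% of all. No gene overlapped 34 (11.9%, against 10.4%). In the deposited gene column, NumGenes, 196 had 1 gene (68.5%, against 66.5%), 58 had 2 or more and 32 had no value. The median N2 IP was 13.7 CPM in replicate 1, against 11.5 CPM over all listed bins, and the median input 8.82 CPM, against 10.7 CPM, both being parts of the ratio that chose the bins.

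Among noncoding genes, snRNA genes lay in 4 of the 286 bins (1.40%, against 0.148%), miRNA genes in 5 (1.75%, against 0.386%), tRNA genes in 5 (1.75%, against 1.1%), snoRNA genes in 2 (0.699%, against 0.761%), rRNA genes in 1 and lincRNA genes in 1. Pseudogenes lay in 3 (1.05%, against 2.88%), other noncoding RNA genes in 28 (9.79%, against 9.31%) and piRNA genes in none, against 220 of all listed bins (0.758%). These shares rest on 5 or fewer bins for most types.

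Collagen genes made up the largest group by gene symbol. Cuticle collagens are short genes whose products build the worm's exoskeleton, and type IV collagens are components of basement membranes. The list of cuticle collagen and related symbols (col-, dpy-, rol- and sqt- names, so that some dpy genes of other kinds are counted) took 38 of the 286 bins (13.3%), against 289 of all listed bins (0.995%), and held 36 of the list's 140 genes in listed bins. Of these dpy-11, a thioredoxin-like enzyme, and dpy-18, a prolyl hydroxylase subunit, are not collagens. The 38 bins had median log2 ratios of 0.50 and 0.54 in snpc-1.3::3xflag, 0.50 and 0.81 in SNPC-4-depleted worms and 0.64 and 0.63 in N2. All 289 listed bins of the list had 0.24 and 0.29 in snpc-1.3::3xflag, 0.26 and 0.38 in SNPC-4-depleted worms and 0.27 and 0.32 in N2, above the medians of all bins. The GC content was 52.2% in the 38 bins, against 43.1% in the 289.

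The type IV collagen genes let-2 and emb-9, outside that list and named by their rank, held 5 adjacent members each, from X 16382001 and III 9338001, of 8 and 6 listed bins. Their 10 bins had medians of 0.90 and 0.90 in snpc-1.3::3xflag, 0.92 and 1.2 in SNPC-4-depleted worms and 0.97 and 0.97 in N2. When each bin was compared with itself at every shift of 2 to 200 bases, the shift with most identical bases was 9, the length of 3 codons, in 8 of these 10 bins and in 24 of the 38 cuticle collagen bins. It was 9 in 120 of the 289 listed bins of that list, in 40 of the 286 chosen bins (14.0%) and in 6.14% of all listed bins.

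Other gene groups took few bins. Ribosomal protein genes lay in 4 (rpl-3, rpl-27 and rps-22) of 111 listed bins (1.40% of the 286, against 0.382% of all listed bins). Histone genes lay in 3 (his-24, his-67 and his-68) of 29 (1.05%, against 0.0999%). Translation elongation factor genes lay in 3 (eef-1A.1, eef-1A.2 and eef-2) of 66 translation factor bins (1.05%, against 0.227%). The polyubiquitin gene ubq-1 took 3 of 18 listed ubiquitin bins (1.05%, against 0.062%), and heat shock genes 2 (hsp-3 and hsp-110) of 35 (0.699%, against 0.121%). Vitellogenin, major sperm protein and SNAPc or piRNA factor genes lay in none of 9, 7 and 26 listed bins. With 0.985% of all listed bins among the 286, these sets are too small for an absence to be read. Several members shared a gene. Beside let-2 and emb-9, 3 bins each lay in ahcy-1, alg-2, icl-1, lea-1, lin-42, nhx-6, ppfr-1, tln-1, ubq-1, unc-70 and Y6B3B.1, which were listed after their counts of bins were seen.

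The 10 bins with the highest lower value of the N2 replicates began with X_16384001, in let-2. Its IP and input counts were 220 and 211 in snpc-1.3::3xflag replicate 1, 326 and 228 in replicate 2, 262 and 206 in SNPC-4-depleted replicate 1, 208 and 209 in replicate 2, 251 and 173 in N2 replicate 1 and 253 and 200 in N2 replicate 2. These gave log2 ratios of 1.18 and 1.37 in snpc-1.3::3xflag, 1.2 and 1.68 in SNPC-4-depleted worms and 1.53 and 1.54 in N2. The N2 values lay within the range of the other files. Of the adjacent let-2 bins, X_16385001 had 0.90 and 1.00 in snpc-1.3::3xflag, 1.04 and 1.34 in SNPC-4-depleted worms and 1.36 and 1.12 in N2. X_16382001 had 1.22 and 0.95 in snpc-1.3::3xflag, 1.41 and 1.65 in SNPC-4-depleted worms and 1.09 and 1.25 in N2. The highest value was in SNPC-4-depleted replicate 2 for 2 of these 3 bins and in N2 replicate 1 for X_16385001.

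II_1671001, in the intron of the sodium-proton exchanger gene nhx-6 whose repeat is printed above, had 1.37 in snpc-1.3::3xflag replicate 1, 1.63 in SNPC-4-depleted replicate 2 and 1.49 and 1.62 in N2, and it was not listed in the other 2 files. IV_10943001, the repeat on chromosome IV without a gene, was listed in SNPC-4-depleted replicate 2 only (1.39), beside N2 (1.27 and 1.27). Both were thus known in few files, since a bin that misses the constant of a file has no value there. III_9341001 in emb-9 had 0.87 in snpc-1.3::3xflag replicate 2, was not listed in replicate 1, and had 0.96 and 1.32 in SNPC-4-depleted worms and 1.17 and 1.18 in N2.

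IV_2398001 overlaps Y38F2AR.10 and the miRNA gene cel-mir-4930 and had 1.08 and 1.06 in snpc-1.3::3xflag, 1.36 and 1.59 in SNPC-4-depleted worms and 1.15 and 1.32 in N2. IV_1831001, in the calcium/calmodulin-dependent kinase gene cmk-1, had 1.02 and 0.96 in snpc-1.3::3xflag, 1.1 and 1.59 in SNPC-4-depleted worms and 1.11 and 1.34 in N2. In both bins SNPC-4-depleted replicate 2 had the highest value. V_4151001, in Y45G5AM.6, had 0.78 and 1.08 in snpc-1.3::3xflag, 0.91 and 1.05 in SNPC-4-depleted worms and 1.05 and 1.25 in N2. X_11605001, at the 14-3-3 gene ftt-2, had 0.47 and 0.76 in snpc-1.3::3xflag, 0.45 and 0.95 in SNPC-4-depleted worms and 1.07 and 1.02 in N2, and was the only 1 of the 10 whose N2 values were both above the values of all other files.

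GC content set these bins apart from most of the genome. Members made up 0.246% of listed bins with a GC content under 35%, 0.0471% at 35 to 38%, 0.179% at 38 to 41%, 0.673% at 41 to 44%, 2.68% at 44 to 47%, 9.41% at 47 to 50%, 22.5% at 50 to 53% and 46.5% (47 of 101) at 53% and over. Bins that were not chosen had higher ratios at higher GC content too. Their median was higher in each class than in the class below it in all 6 files, and was 0.30 and 0.43 in snpc-1.3::3xflag at 53% and over, against 0.03 and 0.01 under 35%. In SNPC-4-depleted worms it was 0.33 and 0.64 at 53% and over, against 0.04 and 0.04 under 35%, and in N2 0.40 and 0.56, against 0.04 and 0.03. Across all listed bins Pearson's r of GC content with the log2 ratio was 0.35 to 0.58 in the 6 files. Within the 286 members it was −0.08 to 0.23. These are descriptions over bins that share their libraries, and the part of base composition in the IP was not tested.

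**Figure D3:**
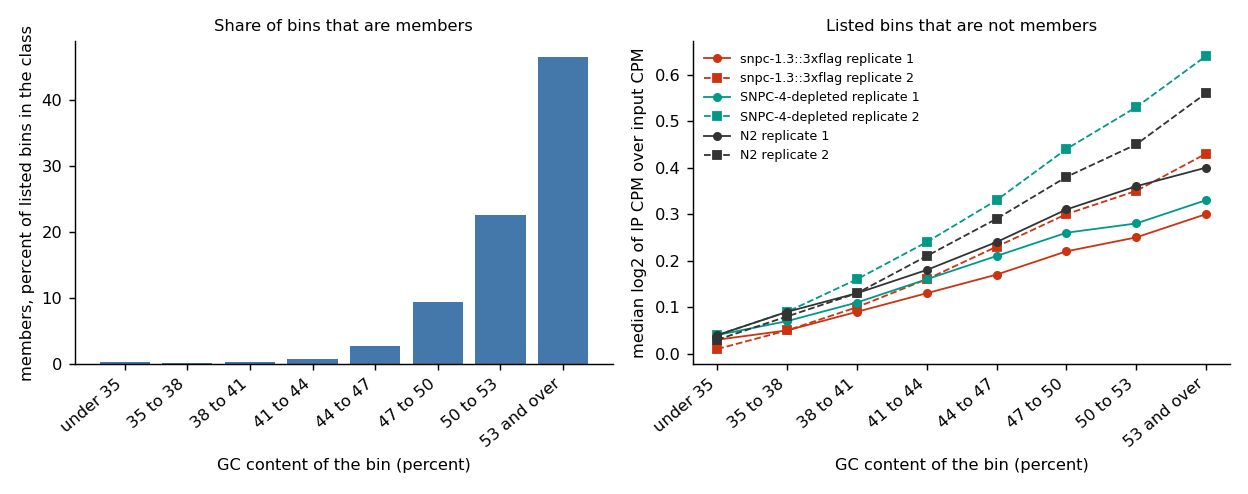
Share of listed bins that are members (left, percent, count-ceiling bins left out) and median log2 IP over input of the listed bins that are not members (right, 1 line per file) by class of GC content. The share reaches 46.5% in the class of 53% and over, and the medians of all 6 files are higher in that class (0.30 to 0.64) than under 35% (0.01 to 0.04). Bins with an input below the constant of their file are listed only with a ratio above 0.

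Of the 12 members with a GC content under 35%, 7 were tandem repeats. A tandem repeat was taken, after these values were seen, as a bin with at least 70% identity to itself at a shift of 2 to 200 bases. The nhx-6 and chromosome IV bins with printed repeats, at 60.7 and 58.7%, fell short of this. Of 27 listed tandem-repeat bins 16 were members (5.59% of the 286, against 0.093% of all listed bins). Their median log2 ratios were 0.78 and 0.52 in snpc-1.3::3xflag, 0.62 and 1.13 in SNPC-4-depleted worms and 0.67 and 0.82 in N2. The 11 that were not chosen had 0.33 and 0.27 in snpc-1.3::3xflag, 0.28 and 0.50 in SNPC-4-depleted worms and 0.28 and 0.38 in N2. Measured as counts, the IP of the 16 bins was a median of 78.6 and 79.3% of the input in snpc-1.3::3xflag, 85.2 and 68.2% in SNPC-4-depleted worms and 79.7 and 76.8% in N2. These shares lay between those of the count-ceiling bins (88.3 to 99.7%) and the share of the IP total in the input total (31.1 to 55.5%). In each file the median of the 270 remaining members did so too. It was 62 and 79.3% in snpc-1.3::3xflag, 76.8 and 49.1% in SNPC-4-depleted worms and 76.7 and 66.7% in N2. Any bin with a log2 ratio above 0 exceeds the share of the totals. V_7989001, the chromosome V repeat printed above and singled out after its values were seen, had IP counts of 343 and 351 in snpc-1.3::3xflag, beside inputs of 361 and 363. It had 354 and 291 in SNPC-4-depleted worms, beside inputs of 355 and 367, and 321 and 330 in N2, beside inputs of 317 and 375. Its IP count was thus 88 to 101% of its input count in 5 of the 6 files and 79.3% in SNPC-4-depleted replicate 2.

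The N2 libraries chose the bins, so IP over input was tested in the other 8 libraries only. The test was not free of selection, since each bin had to be listed for a raised IP in these same libraries. Members had a median input of 9.07 to 9.48 CPM there, against 10.6 to 10.9 CPM over all listed bins. Listing alone thus required a higher fold of them, and the shares called below are partly set by it. Counts of the 16629 bins listed in all 4 files of both tagged strains were fitted with edgeR's quasi-likelihood test, each IP with its own input, and a bin was called at a Benjamini-Hochberg adjusted p of 0.05 or less over all bins with a log2 fold of at least 0.5. Of the 257 members tested, 120 (46.7%) were called higher in the IP of snpc-1.3::3xflag, against 5.56% of all bins tested, which include the piRNA stretches of chromosome IV, and 1.80% of the bins outside these stretches. Without a minimum fold 255 were called, against 34.0% of all bins. In SNPC-4-depleted worms 173 (67.3%) were called higher, against 2.51% of all bins and 2.59% outside the stretches, and without a minimum fold 257 were called, against 34.9%. None was called lower in either strain, as was the case for all bins tested (0%), which were listed only for a raised IP. The median log2 fold of the members was 0.49 in snpc-1.3::3xflag and 0.57 in SNPC-4-depleted worms, where all bins tested had 0.13 and 0.15. Without the 18 count-ceiling bins, an alternative added after the counts were seen, 102 of 239 (42.7%) were called in snpc-1.3::3xflag and 155 of 239 (64.9%) in SNPC-4-depleted worms.

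The number called depended on scaling and, in both strains, on single library pairs. In snpc-1.3::3xflag the members' median log2 fold (0.49) was 0.54 without its replicate 1 and 0.46 without its replicate 2. With the trimmed mean of M-values (TMM), which set the median of all bins to 0.00, 75 members (29.2%) were called in snpc-1.3::3xflag and 88 (34.2%) in SNPC-4-depleted worms, against 3.9% and 0.686% of all bins. All 257 had a fold above 0 in both, as bins that every file had listed for a raised IP. Without SNPC-4-depleted replicate 2, the file with the smallest IP, 114 (44.4%) were called in that strain, against 1.56% of all bins.

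The 18 count-ceiling bins were all called in both strains, but with IP counts near the input counts their folds follow the library totals, and nothing is read from these calls. Of 12 tandem repeats tested, 11 were called in snpc-1.3::3xflag and 12 in SNPC-4-depleted worms, of the 32 bins of the cuticle collagen list tested 17 in snpc-1.3::3xflag and 30 in SNPC-4-depleted worms, and of the 5 let-2 and emb-9 bins tested 3 in snpc-1.3::3xflag and 5 in SNPC-4-depleted worms. The remaining 227 outside the first 2 classes gave 91 in snpc-1.3::3xflag and 143 in SNPC-4-depleted worms. Over all bins tested, 5.56% were called in snpc-1.3::3xflag and 2.51% in SNPC-4-depleted worms. Outside the piRNA stretches it was 1.80 and 2.59%. Across all classes 106 members were called in both strains, 14 in snpc-1.3::3xflag alone, 67 in SNPC-4-depleted worms alone and 70 in neither, which does not show a difference between the strains by itself. The matching joint shares over all bins were not counted.

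The smallest adjusted p among members in snpc-1.3::3xflag (edgeR's quasi-likelihood test) belonged to III_5942001 in ubq-1, which encodes polyubiquitin, with a log2 fold of 0.93 ± 0.074 (SE, adjusted p = 6.1e-10). II_1237001 in lin-42, a relative of the Period clock genes that acts in developmental timing, followed with 0.86 ± 0.071 (adjusted p = 1e-09). Per file these bins were close to each other and to N2. The ubq-1 bin had log2 ratios of 0.91 and 0.94 in snpc-1.3::3xflag, 0.86 and 1.14 in SNPC-4-depleted worms and 0.73 and 1.06 in N2. The lin-42 bin had 0.74 and 0.97 in snpc-1.3::3xflag, 0.71 and 0.74 in SNPC-4-depleted worms and 0.76 and 0.96 in N2. In SNPC-4-depleted worms the smallest adjusted p were those of IV_2398001 (1.47 ± 0.089, adjusted p = 3.7e-10) and IV_1831001 in cmk-1 (1.35 ± 0.097, adjusted p = 8e-09), both also called in snpc-1.3::3xflag at 1.07 and 0.99.

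**Figure D4:**
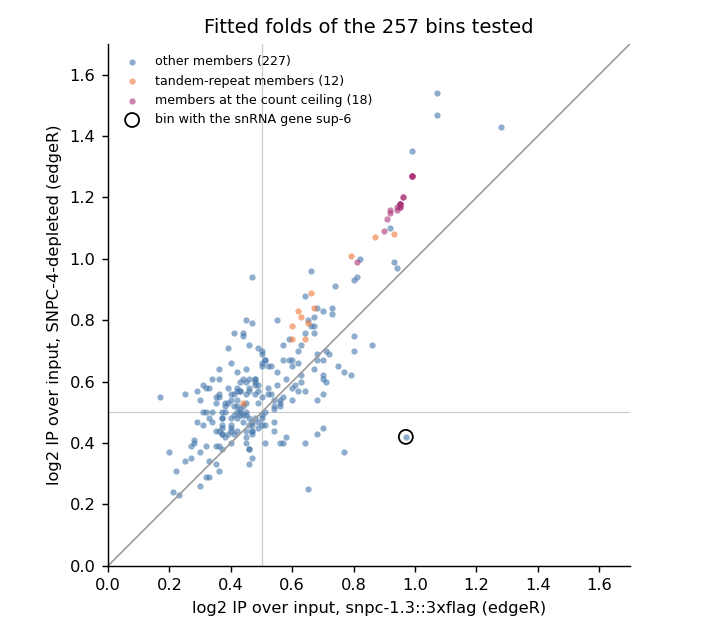
Log2 IP over input fitted by edgeR for the 257 members tested, in SNPC-4-depleted worms (vertical axis) against snpc-1.3::3xflag (horizontal axis), with 1 point per bin, a diagonal of equal values and thin lines at 0.5. All points lie above 0 on both axes, 190 lie above the diagonal, and the circled bin with sup-6 lies below it.

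The difference between the strains was tested in the same fit. For SNPC-4-depleted worms minus snpc-1.3::3xflag, 1 of the 257 members was called lower, against 3.13% of all bins tested and 0.136% of those outside the piRNA stretches, and 0 were called higher, against 0% of all bins. At an unadjusted p of 0.05, 28 of the 257 members passed in either direction, and 1582 of all 16629 bins. All bins include the piRNA stretches, which held most bins called lower (521, with 20 outside), so these counts cannot be compared directly. The median difference of the members was 0.10, and 190 of 257 were above 0. Over all bins, again with the piRNA stretches, the median was 0.03 and 9849 of 16629 were above 0. The members' differences ranged from −0.55 to 0.47 with a median SE of 0.114. The sign of the members' median rested on SNPC-4-depleted replicate 2. Without it the median difference was −0.05 and 91 of 257 were above 0, and without SNPC-4-depleted replicate 1 it was 0.20.

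The 1 member called lower after SNPC-4 depletion was II_12944001, which holds the snRNA gene sup-6 printed above, part of the coding gene F58G1.7 and the noncoding RNA genes F58G1.11 and F58G1.12. Its IP counts were 288 and 226 in SNPC-4-depleted worms, beside inputs of 417 and 504. They were 421 and 550 in snpc-1.3::3xflag, beside inputs of 500 and 476, and 324 and 328 in N2, beside inputs of 394 and 504. The log2 ratios were 0.32 and 0.53 in SNPC-4-depleted worms, against 0.88 and 1.06 in snpc-1.3::3xflag, with N2 at 0.72 and 0.58. The values of snpc-1.3::3xflag lay above those of all 4 other files, and those of SNPC-4-depleted worms below those of N2. The fitted fold was 0.42 after depletion and 0.97 in snpc-1.3::3xflag, a difference of −0.55 ± 0.13 (edgeR's quasi-likelihood test, adjusted p = 0.011). The call was lost without snpc-1.3::3xflag replicate 2 (−0.46, adjusted p = 0.12), without SNPC-4-depleted replicate 1 (−0.44, adjusted p = 0.26) and with DESeq2 (−0.57, adjusted p = 0.11).

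The other 3 bins with an snRNA gene did not stand apart in this way. III_10989001, with part of the dynein heavy chain gene dhc-4 and a copy of the snRNA gene R07E5.16, had 0.54 and 0.72 in SNPC-4-depleted worms, against 0.68 and 0.71 in snpc-1.3::3xflag, with N2 at 0.82 and 0.61, a difference of −0.08 ± 0.10 (adjusted p = 0.94, edgeR). II_13835001, with the insulin-like gene ins-37, the noncoding gene R05D7.8 and the snRNA gene F08G2.9, had 0.46 and 0.56 in SNPC-4-depleted worms, against 0.32 and 0.37 in snpc-1.3::3xflag, with N2 at 0.73 and 0.63, both above all other values. V_17122001, in the array of 5S ribosomal RNA (rrn-4.2) and spliced leader genes (sls-1.10, annotated as snRNA), had 0.68 and 1.17 in SNPC-4-depleted worms, against 0.79 in the 1 snpc-1.3::3xflag file that lists it, and 0.76 and 0.79 in N2. R07E5.16 and the array genes are names of several copies, so that reads kept at 1 copy by the mapping quality filter may not give its full signal. The overlapping F08G2.9 and R05D7.8 cannot be told apart in these counts.

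TRA-1 ChIP peaks, called by the authors in another experiment at 72 h, met the 286 bins more often than listed bins in general. Of the 286, 50.0 and 55.6% shared at least 1 base with a peak of 3xflag::tra-1, against 39.6 and 40.1% of all listed bins. With mutated sites the shares were 48.6 and 54.2% in TBSx1, against 37.7 and 40.2%, 52.4 and 80.1% in TBSx2, against 37.8 and 40.7%, and 63.3 and 74.8% in TBSx3, against 37.3 and 40.3%. In N2, which has no tag, they were 76.2 and 80.8%, against 35.6 and 41.9%. The no-tag lists, TBSx2 replicate 2 and TBSx3 replicate 2 were thus the 4 with the highest shares of members. A peak was present in both no-tag lists for 199 members (69.6%), against 25.5% of all listed bins, in all 10 lists for 117 (40.9%, against 17.9%) and in none for 21 (7.34%, against 32.1%).

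This overlap was also higher at higher GC content. Both no-tag lists had a peak in 87.2% of the members with a GC content of 53% and over, against 77.2% of all listed bins of that class, and in 50.0% of those under 35%, against 17.9%. In each of the 8 classes the share was higher among the members. Where a peak was present, the median fold enrichment that the authors' peak caller gave was 6.84 and 7.20 at members in the 3xflag::tra-1 lists, against 3.06 and 3.65 at all listed bins. It was 1.94 and 1.70 at members in the N2 lists, against 1.71 and 1.56. Of the 16 tandem repeats, 0 and 2 had a peak in the 3xflag::tra-1 lists and 4 in each N2 list. Of the 18 count-ceiling bins, 4 and 7 had one in 3xflag::tra-1 and 12 and 7 in N2.

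**Figure D5:**
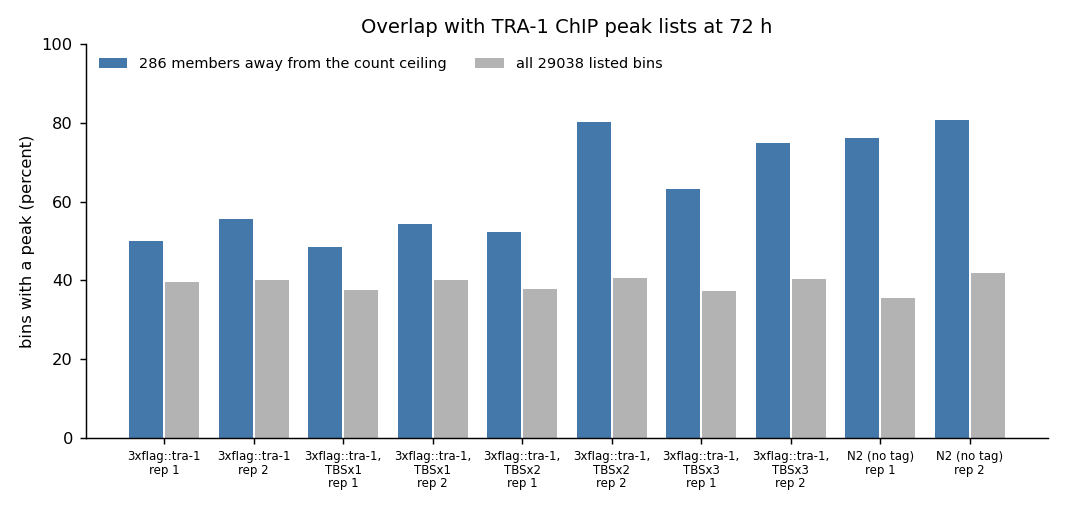
Share (percent) of the 286 members away from the count ceiling (blue) and of all 29038 listed bins (grey) that overlap a peak in each of the 10 TRA-1 ChIP lists. The blue bars run from 48.6% (TBSx1 replicate 1) to 80.8% (N2 replicate 2), and the grey ones from 35.6 to 41.9%.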

How the data were processed

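The bins and gene lists were chosen with earlier results of these data known. For SNPC-1.3 ChIP-seq, per the labels and methods, the authors trimmed reads (Trim Galore 0.5.0), aligned them to WBcel235 (Bowtie2 2.3.4.2), removed duplicates (Picard 2.22.1) and low mapping qualities, extended reads to 200 bases and deposited IP and input counts per 1 kb bin. The deposited CPM is the count plus 1 over 1 total per library, and the deposited signal is the IP CPM minus 1 constant per file (10.45 to 10.54 CPM). For TRA-1, the authors deposited MACS2 2.1.2 peaks with a fold enrichment (a ratio) and −log10 q. The fold enrichment and −log10 q of the peaks were used as given, while other fold-change and score columns of the authors were not. Annotation and sequence came from Ensembl and RefSeq copies of WBcel235.

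Counts were fitted in R 4.3.3 with edgeR 4.0.16 (glmQLFit, glmQLFTest), with 1 term for each IP-input pair and 1 IP term per strain, and with the totals behind the CPM as library sizes. The pairing comes from the labels, which give each IP and its input 1 replicate number. A bin not listed in 1 of the 4 files was left out, so that 16629 were tested, and filterByExpr removed 0. Alternatives were DESeq2 1.42.0, TMM, no block, no filter, no minimum fold, N2 added, each pair left out, thresholds of 0.75 and 1, counts without the added 1, −log10 q of 2 and 200 shared bases. The fit was tested on simulated data. Bins were named by fixed rules: the 10 highest by the lower N2 ratio, 3 on each side of the threshold, those with an snRNA, the 2 smallest adjusted p per test and direction, and the longest run. Other bins and classes were named after their values were seen. Reads carried no molecular identifiers.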

Additional observations from a re-analysis of the deposited data

Results flagged for a closer look

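The strains differed at 2 of the 257 bins tested, by edgeR's quasi-likelihood test of the difference itself at an adjusted p of 0.05, whatever the fold. Of these, 1 was higher and 1 lower (0.389% each). Outside the piRNA stretches, where all members lie, 0.109% of bins were higher and 0.265% lower. With the stretches included it was 0.0962% higher and 3.95% lower. II_12944001, with the snRNA gene sup-6, was lower in SNPC-4-depleted worms than in snpc-1.3::3xflag by a log2 difference of −0.55 ± 0.13 (SE, adjusted p = 0.011). III_9338001, in the type IV collagen gene emb-9, was higher in SNPC-4-depleted worms by 0.47 ± 0.12 (adjusted p = 0.018), below the fold of 0.5 used for calls. Its log2 ratios were 0.88 and 1.02 in SNPC-4-depleted worms, against 0.36 and 0.57 in snpc-1.3::3xflag, with N2 at 0.68 and 0.82. The N2 values of this bin lay between those of the other strains.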

How the results depend on the processing

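No called value of a named bin changed direction, while the median difference of the 257 members (0.10) was −0.05 without SNPC-4-depleted replicate 2. The share of members called in snpc-1.3::3xflag (46.7%, against 5.56% of all bins) was 29.2% with TMM, against 3.9% of all bins. It was 27.6% with DESeq2, against 3.81%, and 99.2% with no minimum fold, against 34.0%. At a selection threshold of 0.75 it was 97.8% (45 of 46), and at 1 it was 100% (13 of 13). The first of these sets holds all 18 count-ceiling bins and the second the ribosomal ones, from whose calls nothing is read. The share in SNPC-4-depleted worms (67.3%) was 34.2% with TMM, 21.8% with DESeq2 and 44.4 to 87.5% with 1 pair left out. The share called lower after depletion (0.389%) was 0% with DESeq2 and at thresholds of 0.75 and 1, and 0 to 0.778% with 1 pair left out. Without the replicate block the shares were 48.2, 66.1 and 0.389%, so that the pairing changed no count by over 1.5 times. TMM moved the median of all bins to 0.00 on the log2 scale. The mean of the medians by file, at thresholds of 0.75 and 1, was 0.89 and 1.01 in snpc-1.3::3xflag, 1.09 and 1.24 in SNPC-4-depleted worms and 1.02 and 1.15 in N2, and in N2 0.62 without the count-ceiling bins, chosen after seeing the data. Overlap with TRA-1 peaks, as the mean of both lists, was 59.3% in TBSx3 and 52.3% in N2 with −log10 q of 2 or more, and 71.7% in N2 with 200 bases shared. The causes were not tested. Counts of 151 to 835 in the inputs limit single bins, whose differences had a median SE of 0.114.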
